A study of Homo sapiens with 5 samples.

Results

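The small nucleolar RNA (snoRNA) host lncRNAs are long noncoding RNA genes whose introns carry snoRNA genes. The set was defined by name, as every lncRNA gene of the count table with a numbered *SNHG* symbol (snoRNA host gene), together with *GAS5*, *ZFAS1*, *DANCR*, *EPB41L4A-AS1*, *MEG8*, and *MEG3*. It held 32 of the 27328 genes in the table and 32 of its 6034 lncRNA genes. Being defined by name, the set includes *MEG3* and *SNHG27*, within whose annotated spans no snoRNA lies. The hosts were measured in TF-1 cells, a human acute myeloid leukemia cell line, by 3′ mRNA sequencing of 2 control and 3 knockout pools. Each knockout pool (sgMTSS1_1, sgMTSS1_2, and sgMTSS1_3, here knockout pools 1 to 3) combined 4 single-cell clones that carry Cas9 and an sgRNA of their own against *MTSS1*, a gene for a membrane-bending scaffold protein. Each control pool combined 4 clones that carry Cas9 and the same control sgRNA, directed against *Renilla* luciferase. As far as the labels state, the groups differed in the sgRNA only, and a pool of 4 clones samples few of the clones a transduced culture can give. The libraries are separate pools, and p-values measure the spread between pools. According to the study's methods, a further control pool and a further knockout pool were left out as outliers, so this spread is that of pools kept by an outlier test.

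An snoRNA is cut out of the intron of its host after splicing. C/D snoRNAs, which carry the C and D boxes, guide the methylation of riboses in ribosomal RNA, H/ACA snoRNAs guide the conversion of uridine into pseudouridine, and scaRNAs do the same on spliceosomal RNAs in Cajal bodies. The spliced exons that remain of the host are, for several members, exported, taken up by ribosomes on short reading frames, and destroyed by nonsense-mediated decay. Some hosts begin with a terminal oligopyrimidine (TOP) tract, the start that ribosomal protein mRNAs share and that places their translation under control of mTORC1. The libraries count the polyadenylated 3′ ends of the spliced hosts and not the snoRNAs, so every value below refers to the host transcript.

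The 5 libraries held 2849979 to 8854899 counts, with both control libraries below all 3 knockout libraries in depth, and 3 counts corresponded to 0.389 to 0.938 CPM (counts scaled to a common library size with TMM factors). Intervals and this limit cover counting error only. The targeted gene *MTSS1* had 204 and 87.9 CPM in the control pools and 104, 139, and 49.9 CPM in the knockout pools, with a log2-fold change of -0.58 ± 0.47 (SE) and an adjusted p of 0.494. The groups overlapped, and since 3′ tags do not read the edited site, the level does not check the genotype. According to the study's methods, loss of the protein in the pooled knockout clones was established by immunoblot. All 15 hematopoietic markers looked up were counted, and 10 of 14 markers of other cell types were in the table, of which *ALB*, *EPCAM*, *COL1A1*, and *COL1A2* stayed below 0.7 CPM in every pool. *PECAM1*, which blood cells share with endothelium, had 116 to 238 CPM, and *CDH5*, *GFAP*, *CD3D*, and *CD79A* had at most 6.25 CPM. *PECAM1* was higher in all knockout pools (log2-fold change 0.71 ± 0.29 SE, adjusted p = 0.184 by edgeR) and *CD79A* lower in all of them (-2.59 ± 0.65 SE, adjusted p = 0.0506 by edgeR, called by DESeq2). Their part in the results was not tested. Ribosomal protein genes took 7.92 and 9.51% of all counts in control pools 1 and 2, whereas their share was 18.3, 12.3, and 14.2% in knockout pools 1 to 3.

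As a whole, the hosts took a similar share of each library. The 32 members together received 0.567% (95% Wilson interval 0.558 to 0.576) and 0.510% (0.502 to 0.517) of the counts in control pools 1 and 2. The share was 0.531% (0.526 to 0.535), 0.460% (0.454 to 0.466), and 0.497% (0.491 to 0.503) in knockout pools 1 to 3, so that the groups overlapped. Within this share the composition differed. *SNHG5* and *SNHG25* accounted for 33.0 and 15.02% of the member counts in control pool 1 and for 13.9 and 11.7% in control pool 2. In the knockout pools, *SNHG5* accounted for 7.79 to 10.5% and *SNHG25* for 3.32 to 4.37%. *SNHG8* took 1.45 and 1.16% in the control pools and 12.4, 8.02, and 9.46% in knockout pools 1 to 3, where it ranked first among all members in pool 1 (shares of counts, not corrected for length).

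Of the 32 members, 28 passed the filter on low counts. The remaining 4, *SNHG21*, *SNHG22*, *SNHG27*, and *SNHG31*, had at most 10 counts in any library and were at or under the limit of 3 counts in most of them, so no fold was derived. A member was called when the adjusted p of edgeR's quasi-likelihood test was below 0.05 and the log2-fold change was above 1 or below -1. Of the 28 tested members, 2 were called higher in the knockout (*SNHG8* and *SNHG6*), against 4.17% of all 14391 tested genes, and 1 was called lower (*SNHG25*), against 1.01%. All 3 knockout pools lay above both control pools for 9 members, against 22.2% of all tested genes, and below both for 6 members, against 19.2%. The groups overlapped for the other 13. The calls are too few to set the list apart from the background. The median log2-fold change was 0.22 over the tested members and -0.03 over all tested genes, and 16 of the 28 values were positive.

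**Figure D1:**
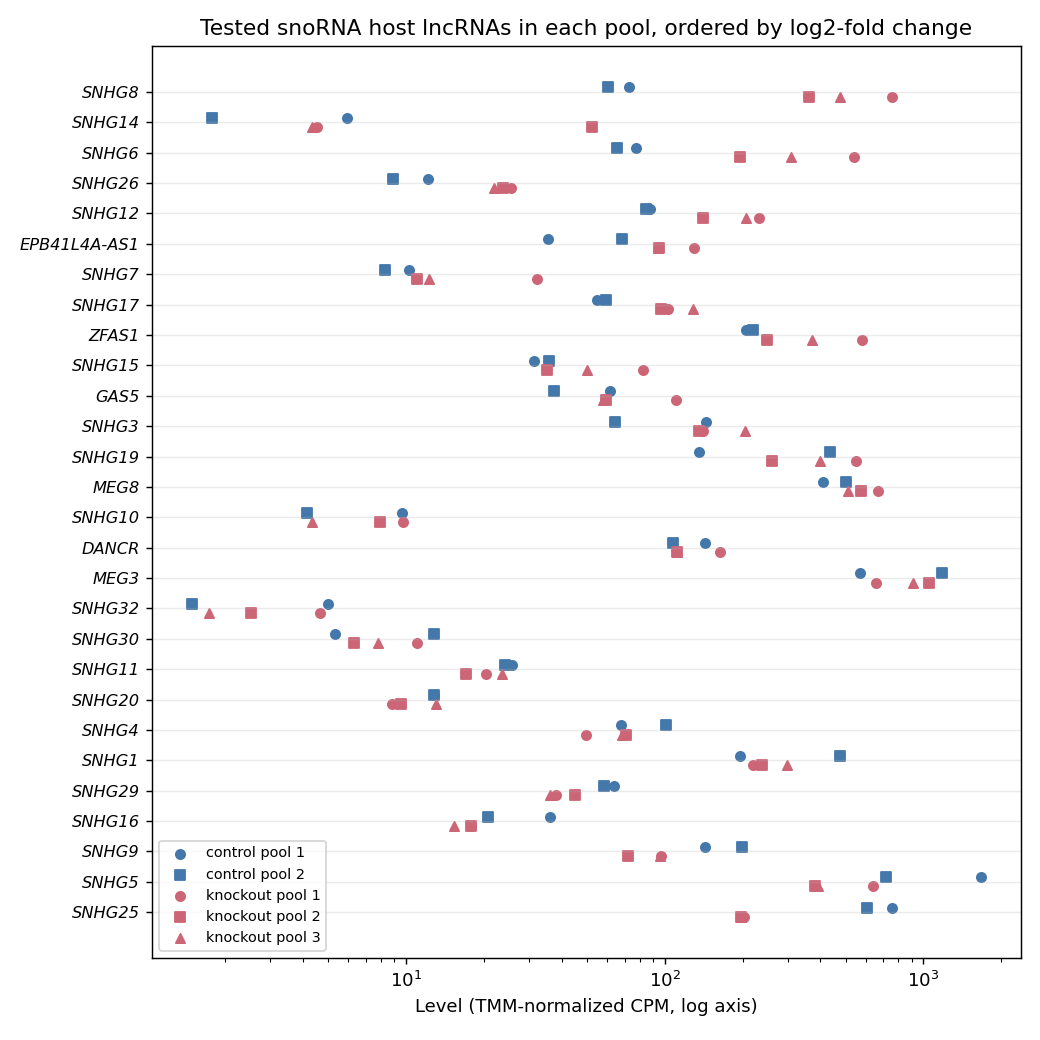
Level of each tested host (CPM, log axis) in the 2 control pools (blue) and the 3 knockout pools (red), with hosts ordered by log2-fold change and the marker shape giving the pool number. *SNHG8*, at the top, lies at 60.2 and 73.2 CPM in the control pools and at 362 CPM or more in every knockout pool, whereas *SNHG25*, at the bottom, lies at 604 CPM or more in both control pools and at 197 to 202 CPM in the knockout pools.

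*SNHG8* was the member with the largest change. It hosts 1 snoRNA, the H/ACA snoRNA *SNORA24*, which guides pseudouridylation of the small-subunit ribosomal RNA. Control pools 1 and 2 had 73.2 and 60.2 CPM, whereas knockout pools 1 to 3 had 755, 362, and 475 CPM. The lowest knockout pool was therefore several-fold above the highest control pool, with means of 66.7 ± 9.17 CPM (SD, n = 2) and 531 ± 202 CPM (SD, n = 3). The log2-fold change was 2.99 ± 0.42 (SE), a 7.96-fold difference, with an adjusted p of 0.00984 by edgeR. *SNHG8* was called under every alternative tried, with log2-fold changes from 2.64 to 3.25. The gene lies on chromosome 4 at 118278703 to 118285316 on the plus strand (GRCh38, GENCODE). *PRSS12*, annotated on the opposite strand over part of it, had at most 2.68 CPM in any pool. The snoRNA is shown because it is the product that a transcript of *SNHG8* carries, at chr4:118279190-118279320 on the plus strand of GRCh38 (RefSeq), 5′ to 3′, with the ACA box that gives the family its name in capitals.
SNORA24: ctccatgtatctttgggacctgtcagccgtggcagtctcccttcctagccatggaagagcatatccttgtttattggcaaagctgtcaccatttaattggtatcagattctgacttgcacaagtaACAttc

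*SNHG6*, the host of the C/D snoRNA *SNORD87*, was the second member called higher. Control pools 1 and 2 had 77.5 and 65.6 CPM of this transcript, and knockout pools 1 to 3 had 540, 195, and 307 CPM. The groups did not overlap, although the knockout pools spread over a wide range, from means of 71.6 ± 8.47 CPM (SD, n = 2) to 347 ± 176 CPM (SD, n = 3). The log2-fold change was 2.28 ± 0.46 (SE), a 4.85-fold difference, with an adjusted p of 0.0255 by edgeR. The call was lost without control pool 2 (adjusted p = 0.0550), without knockout pool 1 (0.0673), and without knockout pool 3 (0.0639), with log2-fold changes of 2.19, 1.80, and 2.41, respectively. *MCMDC2*, on the opposite strand, had at most 3.44 CPM.

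For *SNHG8* and for *SNHG6*, knockout pool 1 was highest, pool 3 intermediate, and pool 2 lowest. The share of counts on ribosomal protein genes had the same order, 18.3, 14.2, and 12.3%. Pool 1 was also the highest knockout pool for 19 of the 28 tested members and for 8 of the 9 members with all knockout pools above both control pools. It was the deepest library, and the share of all tested genes that were highest in pool 1 was not computed. These counts therefore do not set the hosts apart from other genes. With TMM factors computed without ribosomal protein and mitochondrially encoded genes, and with all libraries thinned to the smallest total, the members called were again *SNHG8*, *SNHG6*, and *SNHG25*. The part of the ribosomal protein share in the order of the pools was not tested.

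*SNHG25* was the member called lower. It is a host of very short span, 540 bases on chromosome 17 at 64145937 to 64146476 (plus strand, GRCh38), and carries a C/D snoRNA, *SNORD104*, and an H/ACA snoRNA, *SNORA50C*. The control pools 1 and 2 held 759 and 604 CPM, and knockout pools 1 to 3 held 202, 198, and 197 CPM. The knockout pools were nearly identical, with a mean of 199 ± 2.82 CPM (SD, n = 3), whereas the control mean was 681 ± 109 CPM (SD, n = 2). The log2-fold change was -1.78 ± 0.29 (SE), 0.292 times the control level, with an adjusted p of 0.0142 by edgeR. No other lncRNA or protein-coding gene of the table overlaps it. Leaving out knockout pool 1, 2, or 3 raised the adjusted p to 0.0612, 0.0626, or 0.0823, at log2-fold changes of -1.80, -1.73, and -1.73. Both snoRNAs are shown because they occupy a large part of this gene, at chr17:64146078-64146157 and chr17:64146339-64146471 on the plus strand of GRCh38 (RefSeq). Capitals mark the C box (TGATGA) and the D box (CTGA) of *SNORD104* and the ACA box of *SNORA50C*.
SNORD104: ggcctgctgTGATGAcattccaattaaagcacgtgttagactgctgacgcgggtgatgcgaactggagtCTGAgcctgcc
SNORA50C: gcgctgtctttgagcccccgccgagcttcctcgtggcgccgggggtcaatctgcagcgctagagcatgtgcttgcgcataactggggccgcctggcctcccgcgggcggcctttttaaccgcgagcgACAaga

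**Figure D2:**
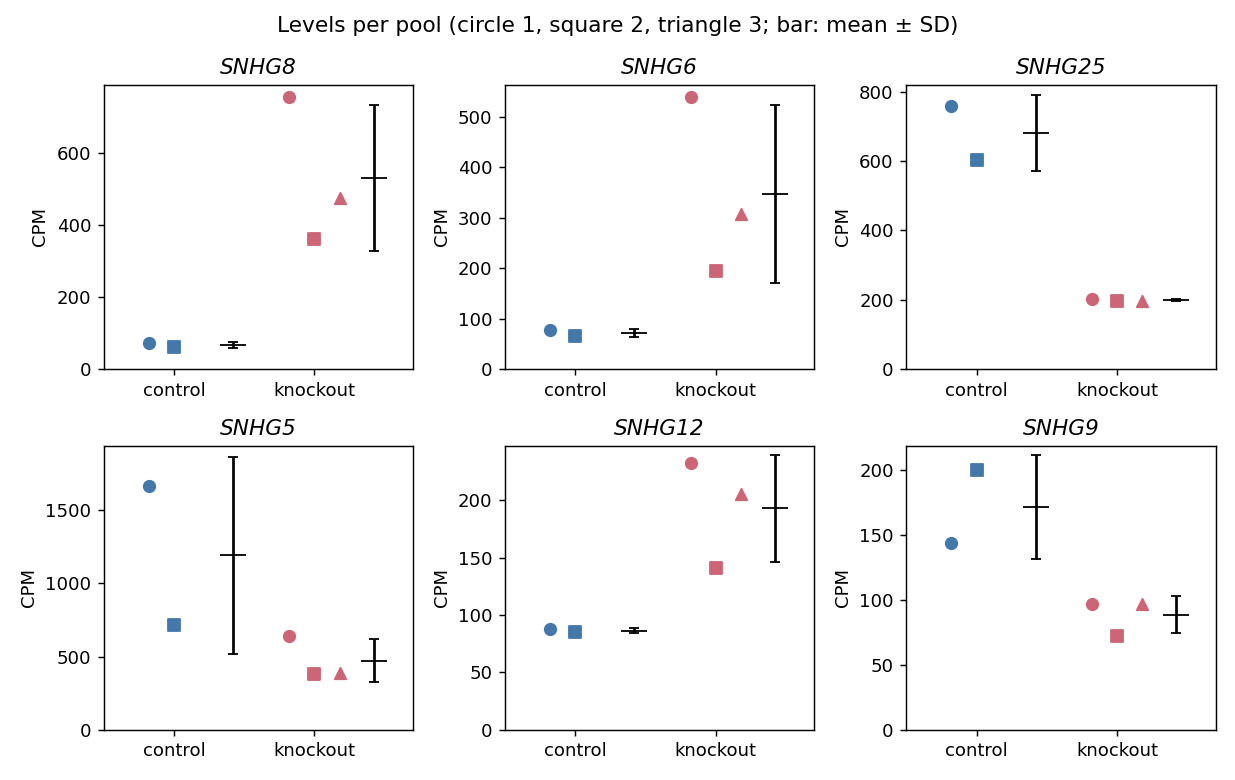
Level (CPM, linear axes from 0) of 6 hosts in each pool, with the mean and SD of each group beside the points. *SNHG8* and *SNHG6* are higher and *SNHG25* is lower in all 3 knockout pools, *SNHG5* and *SNHG9* lie lower and *SNHG12* higher without passing the thresholds, and the control pools of *SNHG5* differ 2.32-fold.

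Among the 10 hosts of C/D snoRNAs outside the imprinted clusters, all 10 were tested and 1 was called (*SNHG6*, higher). Of all tested genes, 4.17% were called higher and 1.01% lower. All knockout pools lay above both control pools for 3 of the 10, against 22.2% of all tested genes, and below for 3, against 19.2%. Counts over 10 genes are too few to set the class apart. The log2-fold changes ranged from -1.34 to 2.28 with a median of -0.10. *SNHG5*, which carries *SNORD50A* and *SNORD50B*, had the most negative value of this class. It had 1668 and 718 CPM in the control pools and 640, 380, and 391 CPM in the knockout pools. The groups did not overlap, yet the control pools differed 2.32-fold, and the log2-fold change of -1.34 ± 0.43 (SE) had an adjusted p of 0.0998 by edgeR. *SNHG5* passed the thresholds with DESeq2 (adjusted p = 0.0282), with library size alone as the scaling (0.0483), and without control pool 2 (0.0226), and its log2-fold change was -0.60 without control pool 1. The pair of snoRNAs of *SNHG5* is shown because each carries both boxes, given in capitals. They lie at chr6:85677294-85677368 and chr6:85677589-85677659 on the minus strand of GRCh38 (RefSeq).
SNORD50A: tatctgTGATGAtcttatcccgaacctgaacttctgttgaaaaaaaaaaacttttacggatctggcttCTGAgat
SNORD50B: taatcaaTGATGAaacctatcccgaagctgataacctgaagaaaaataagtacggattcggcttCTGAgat

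The other C/D hosts did not pass the thresholds. *SNHG26*, the host of *SNORD93*, had 12.2 and 8.94 CPM in the control pools and 25.6, 23.8, and 21.9 CPM in the knockout pools. Its groups did not overlap, and the log2-fold change of 1.17 ± 0.34 (SE) had an adjusted p of 0.0792 by edgeR and of 0.0484 by DESeq2. *ZFAS1*, the host of *SNORD12*, *SNORD12B*, and *SNORD12C*, had 206 and 220 CPM in the control pools and 579, 248, and 370 CPM in the knockout pools. Here too the groups did not overlap, but knockout pool 2 was near the controls, and the log2-fold change was 0.91 ± 0.39 (SE, adjusted p = 0.202). *SNHG1*, which holds 8 C/D snoRNAs (*SNORD22* and *SNORD25* to *SNORD31*), had 196 and 477 CPM in the control pools and 220, 239, and 296 CPM in the knockout pools. The knockout pools thus lay between the control pools. *SNHG19*, the host of *SNORD60*, had 136 and 436 CPM in the control pools and 549, 260, and 399 CPM in the knockout pools, and the groups overlapped, with knockout pool 1 above both controls and the others between them. *SNHG16* (*SNORD1A* to *SNORD1C*), with a log2-fold change of -0.74 ± 0.34 (SE), and *SNHG29* (*SNORD49A*, *SNORD49B*, and *SNORD65*), with -0.61 ± 0.28 (SE), had non-overlapping groups with the knockout lower, at adjusted p-values of 0.229. *SNHG30* (*SNORD7*) and *SNHG32* (*SNORD48* and *SNORD52*) had log2-fold changes of -0.11 and -0.10 at mean levels of 8.66 and 3.09 CPM over the 5 pools.

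**Figure D3:**
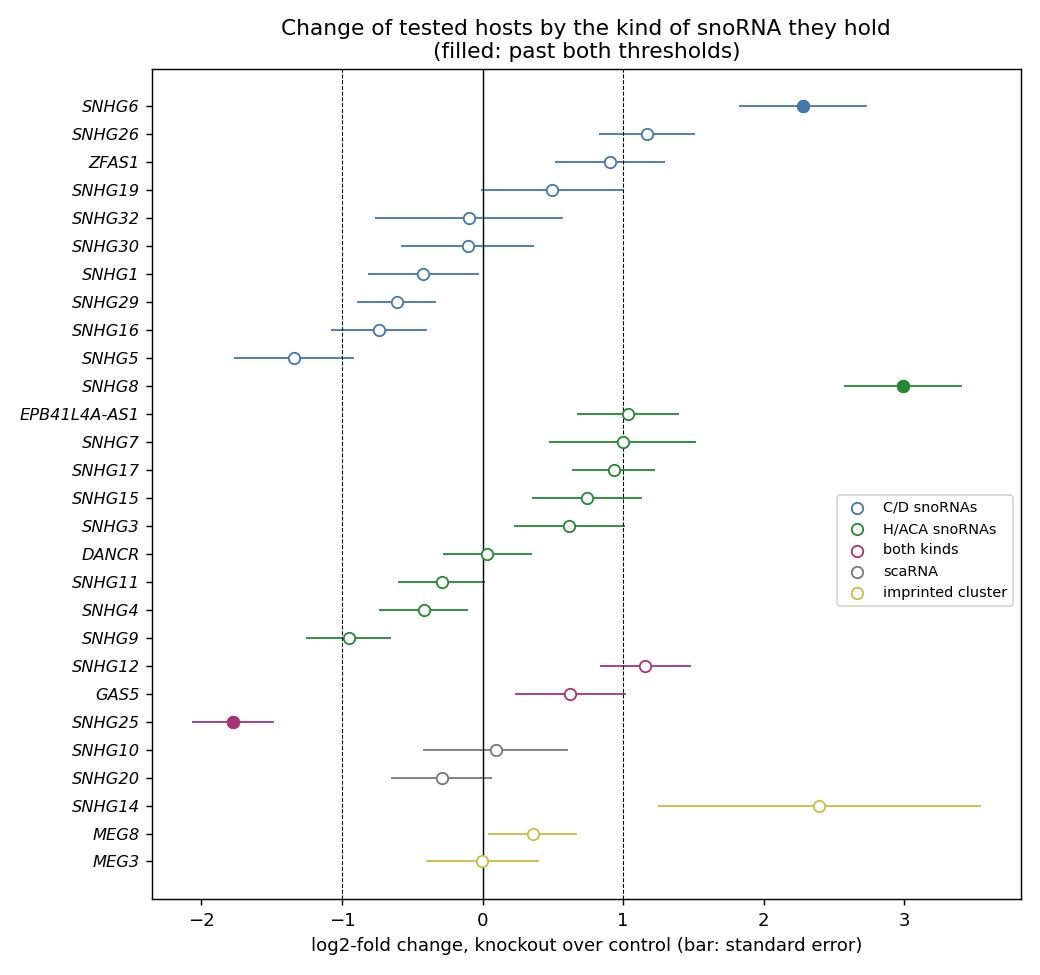
Log2-fold change of the knockout over the control pools for the 28 tested hosts, grouped by the kind of snoRNA within the gene. Bars are standard errors, dashed lines mark -1 and 1, and filled points are the 3 called hosts, which belong to 3 different classes.

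Among the 11 hosts of H/ACA snoRNAs, 10 were tested and 1 was called (*SNHG8*, higher). Of all tested genes, 4.17% were called higher and 1.01% lower. All knockout pools lay above both control pools for 4 of the 10, against 22.2% of all tested genes, and below for 2, against 19.2%. Counts over 10 genes are too few to set the class apart. The log2-fold changes ranged from -0.95 to 2.99 with a median of 0.68. *EPB41L4A-AS1*, the host of *SNORA13*, had 35.3 and 68.2 CPM in the control pools and 129, 94.8, and 94.0 CPM in the knockout pools. The groups did not overlap, and the log2-fold change was 1.03 ± 0.36 (SE, adjusted p = 0.127), with a call without control pool 2 (log2-fold change 1.61, adjusted p = 0.0389). *SNHG17*, which carries the *SNORA71A* to *SNORA71D* group, had 55.0 and 59.6 CPM in the control pools and 103, 96.8, and 129 CPM in the knockout pools. Each group was narrow, and the log2-fold change of 0.93 ± 0.29 (SE) had an adjusted p of 0.0980. *SNHG7* (*SNORA17A* and *SNORA17B*) had 10.3 and 8.34 CPM in the control pools and 32.2, 11.0, and 12.4 CPM in the knockout pools, with a log2-fold change of 0.996 ± 0.52 (SE, adjusted p = 0.286) that was 0.31 without knockout pool 1. *SNHG9*, the short host of *SNORA78*, had 143 and 200 CPM in the control pools and 96.9, 72.2, and 96.4 CPM in the knockout pools. All its knockout pools lay below both control pools, with a log2-fold change of -0.95 ± 0.30 (SE, adjusted p = 0.0970), and it was called without control pool 1 (-1.16, adjusted p = 0.0469).

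The remaining H/ACA hosts had smaller differences. *SNHG15* (*SNORA9*) and *SNHG3* (*SNORA73A* and *SNORA73B*) had log2-fold changes of 0.74 ± 0.39 and 0.62 ± 0.39 (SE) with overlapping groups. *DANCR*, the host of *SNORA26* and known for holding progenitor cells in an undifferentiated state, had 144 and 108 CPM in the control pools and 164, 111, and 111 CPM in the knockout pools. Its log2-fold change was 0.03 ± 0.32 (SE, adjusted p = 0.964). The opposite-strand lncRNA ENSG00000286161, which overlaps *DANCR*, was called lower, from 22.8 and 29.8 CPM to 3.89, 8.67, and 1.91 CPM (log2-fold change -2.45 ± 0.53 SE, adjusted p = 0.0326). *SNHG11* and *SNHG4* had log2-fold changes of -0.29 and -0.42.

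Of the 3 hosts of both kinds of snoRNA, *SNHG25* is described above. *SNHG12*, with *SNORA16A*, *SNORA44*, *SNORA61*, and *SNORD99*, had 87.9 and 84.9 CPM in the control pools and 232, 141, and 205 CPM in the knockout pools. The control pools were almost equal and all knockout pools lay above them. The log2-fold change was 1.16 ± 0.32 (SE) with an adjusted p of 0.0706 by edgeR, and *SNHG12* was called by DESeq2 (adjusted p = 0.0203) and without a filter on low counts (0.0323). *TRNAU1AP*, a selenocysteine tRNA-associated protein gene on the opposite strand over part of *SNHG12*, was called higher, from 15.01 and 15.8 CPM to 49.3, 37.2, and 39.0 CPM (log2-fold change 1.44 ± 0.32 SE, adjusted p = 0.0349). *TRNAU1AP* and ENSG00000286161 were named after their values were seen. The use of strand in counting is not given in the sources used here, so reads of overlapping genes on opposite strands, for 18 of the 32 members, may not be told apart. Genes on the same strand overlap 7 members, whose reads strand would not separate. These are *DANCR*, *MEG3*, *MEG8*, *SNHG3*, *SNHG14*, *SNHG20*, and *SNHG21*. *GAS5*, which accumulates in growth-arrested cells and carries 10 C/D snoRNAs and *SNORA103*, had 61.6 and 37.3 CPM in the control pools and 111, 59.2, and 57.9 CPM in the knockout pools. Control pool 1 exceeded knockout pools 2 and 3, and the log2-fold change was 0.62 ± 0.39 (SE, adjusted p = 0.380). The scaRNA hosts *SNHG10* and *SNHG20* had log2-fold changes of 0.09 ± 0.51 and -0.29 ± 0.36 (SE).

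The imprinted hosts are expressed from a single parental allele, and *MEG8* and *SNHG14* hold tandem arrays of C/D snoRNAs. *MEG3* and *MEG8* belong to 1 maternally expressed cluster on chromosome 14, and *SNHG14* to the paternally expressed Prader-Willi region of chromosome 15, where its far end runs opposite to *UBE3A*. *MEG3*, within whose annotated span no snoRNA lies, had 567 and 1181 CPM in the control pools and 658, 1052, and 911 CPM in the knockout pools, with a log2-fold change of 0.00 ± 0.40 (SE). The knockout pools lay between the control pools. *MEG8*, with 41 C/D snoRNAs, had 409 and 503 CPM in the control pools and 666, 573, and 512 CPM in the knockout pools. All knockout pools were above the controls, by a log2-fold change of 0.36 ± 0.32 (SE, adjusted p = 0.539).

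*SNHG14*, with 83 C/D snoRNAs, stood apart in 1 pool. It had 5.94 and 1.79 CPM in the control pools and 4.54, 52.5, and 4.35 CPM in knockout pools 1 to 3. Knockout pools 1 and 3 lay within the range of the controls and pool 2 far above it, and the log2-fold change of 2.40 ± 1.15 (SE) had an adjusted p of 0.247 by edgeR. Without knockout pool 2 the log2-fold change was 0.27 (adjusted p = 0.859). Neighbouring genes were looked up after this value was seen. *SNRPN*, on the same strand just upstream and overlapping the start of *SNHG14*, had 0 and 1 counts in the controls but 0, 48, and 2 counts in knockout pools 1 to 3, and was thus also highest in pool 2. *MKRN3*, another gene of the same imprinted region, gave 17 and 5 counts in the controls against 3, 3, and 4 counts after knockout. *UBE3A*, the ubiquitin ligase gene on the opposite strand, had 149 and 136 CPM in the control pools and 123, 142, and 149 CPM in the knockout pools, and pool 2 did not stand apart for it.

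**Figure D4:**
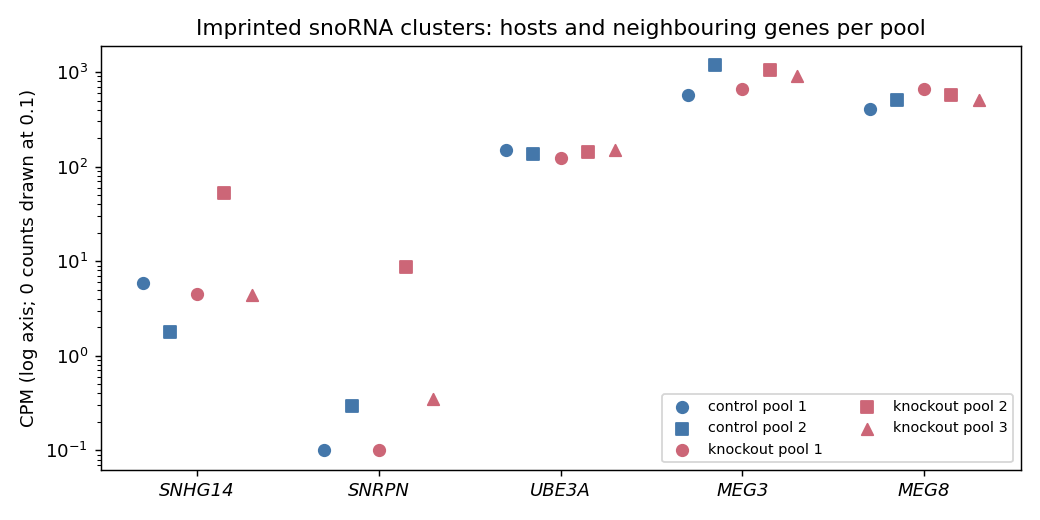
Level (CPM, log axis, with 0 counts drawn at 0.1) of the imprinted hosts and of *SNRPN* and *UBE3A* in each pool. Knockout pool 2 alone is high for *SNHG14* (52.5 CPM) and *SNRPN* (8.67 CPM), whereas *UBE3A*, *MEG3*, and *MEG8* show no pool apart.

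The snoRNAs and the starts of the hosts were read from RefSeq sequence of GRCh38. The spans of 30 of the 32 members hold 188 annotated snoRNA or scaRNA genes, of which 161 are C/D, 23 are H/ACA, and 4 are scaRNA genes. The exact letters TGATGA within the first 20 bases and CTGA within the last 15 bases, on the snoRNA's own strand, were found in 126 of the 161 C/D snoRNAs (78.3%) and in 178 of 279 annotated C/D snoRNA genes with a known strand (63.8%). Outside the tandem arrays of *MEG8* and *SNHG14*, 25 of the 37 C/D snoRNAs of members held both (67.6%), near the share over all. An ACA box 3 bases before the end was found in 21 of 23 H/ACA snoRNAs (91.3%) and in 126 of 149 such genes overall (84.6%).

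A start was given for 27 members. For *GAS5* the start window (chr1:173868996-173869055, minus strand) lay upstream of the annotated span, which ends at 173868882. The window of *SNHG14* (chr15:24823598-24823657, plus strand) lay upstream of its span from 24978583. Both were counted as having no tract, which does not show what the start of the annotated gene holds. A C followed by at least 4 pyrimidines, the form of a TOP tract, was found on the transcribed strand at the start of 6 of the 27 (22.2%), of 1429 of all 35116 starts (4.07%), and of 47 of 78 starts of ribosomal protein genes (60.3%). The 6 members were *SNHG4*, *SNHG5*, *SNHG12*, *SNHG19*, *SNHG32*, and *ZFAS1*. Their log2-fold changes were -0.42, -1.34, 1.16, 0.50, -0.10, and 0.91, of which 3 were positive and none passed the thresholds. *SNHG8* was classed as having no such tract, since an A follows the C at the start given. A run of pyrimidines (cctttc) ends at that C, so the class depends on the exact start used. The annotated span of *SNHG8* begins upstream of the window, at 118278703. *SNHG6* and *SNHG25*, the other called members, were not classed. Windows of 10 bases before and 50 bases from the start are shown for the 4 members of these with the highest levels in the knockout pools and *SNHG8*, with the pyrimidine tract in capitals. They lie at chr6:85678684-85678743 (minus strand), chr1:28581824-28581883 (minus), chr16:2155309-2155368 (minus), chr20:49278632-49278691 (plus), and chr4:118278752-118278811 (plus).
SNHG5: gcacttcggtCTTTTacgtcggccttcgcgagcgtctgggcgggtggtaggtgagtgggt
SNHG12: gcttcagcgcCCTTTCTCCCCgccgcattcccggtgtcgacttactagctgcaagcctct
SNHG19: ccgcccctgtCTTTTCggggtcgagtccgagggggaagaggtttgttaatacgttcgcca
ZFAS1: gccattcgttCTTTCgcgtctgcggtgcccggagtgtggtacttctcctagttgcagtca
SNHG8: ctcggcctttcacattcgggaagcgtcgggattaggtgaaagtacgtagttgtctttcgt

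The proteins that bind snoRNAs were examined next. None of the 4 core proteins of C/D particles, none of the 4 of H/ACA particles, and none of the 14 assembly factors passed the thresholds, against 600 genes called higher and 145 called lower of 14391. These counts are by edgeR, and at an unadjusted p under 0.05 they were 0, 2, and 3, against 3359 of all 14391 tested genes. DESeq2 called *NOP10*, *PIH1D1*, and *TCOF1* higher, against 1019 of all tested genes, and limma-voom called *NOP10*, against 510. *NOP56* and *NOP58*, the paired scaffold proteins of C/D particles, had log2-fold changes of 0.60 ± 0.34 and 0.50 ± 0.30 (SE). *NOP10*, the smallest H/ACA core protein, had 20.01 and 2.68 CPM in the control pools and 91.1, 47.1, and 47.7 CPM in the knockout pools. The groups did not overlap, but the control pools differed strongly, and the log2-fold change of 2.45 ± 0.68 (SE) had an adjusted p of 0.0685. *GAR1*, which holds the pseudouridine synthase in its active form, had a log2-fold change of 0.84 ± 0.30 (SE, adjusted p = 0.137). The other core proteins were lower or unchanged. *FBL* and *SNU13* of C/D particles had log2-fold changes of -0.65 ± 0.46 and -0.002 ± 0.32 (SE). *DKC1* and *NHP2* of H/ACA particles had -0.80 ± 0.48 and -0.68 ± 0.35 (SE). In each core list 2 of the 4 values were positive, with medians of 0.25 (C/D) and 0.08 (H/ACA). For the assembly factors 11 of 14 were positive, with a median of 0.50. Of the assembly factors, *PIH1D1* of the R2TP complex and the nucleolar scaffold *TCOF1* had log2-fold changes of 1.06 ± 0.29 and 1.12 ± 0.32 (SE) at adjusted p-values of 0.0660 and 0.0755.

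Of 22 factors of nonsense-mediated decay and the exon junction complex, 3 were called higher (13.6%, against 4.17% of all tested genes) and 0 lower. The median log2-fold change was -0.16, and 11 of the 22 had an unadjusted p under 0.05, against 3359 of all 14391 tested genes. The 3 called genes encode the core of the exon junction complex, which marks spliced exon borders. *MAGOH* had 90.1 and 74.8 CPM in the control pools and 427, 406, and 315 CPM in the knockout pools (log2-fold change 2.21 ± 0.33 SE, adjusted p = 0.0109). *RBM8A*, the binding partner of MAGOH, had 45.0 and 49.8 CPM in the control pools and 131, 94.6, and 114 CPM in the knockout pools (1.26 ± 0.30 SE, adjusted p = 0.0447). *EIF4A3*, the helicase that anchors the complex on RNA, had 22.2 and 11.9 CPM in the control pools and 118, 39.7, and 65.1 CPM in the knockout pools (2.13 ± 0.51 SE, adjusted p = 0.0452). For each of them the groups did not overlap. DESeq2 called 5 of the 22 higher and 1 lower, against 1019 and 338 of all 14391 tested genes. With limma-voom 2 were called higher, without *EIF4A3*, against 510 of all tested genes.

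Of 20 genes of the mTORC1 pathway and of TOP mRNA control, 1 was called higher (5%, near the 4.17% of all tested genes) and 0 lower. This was *MLST8*, a subunit shared by both mTOR complexes, which had 2 counts in each control pool and 67, 38, and 52 counts in the knockout pools. Summed over pools and corrected for library size the ratio was 13.5 (exact binomial 95% interval 5.18 to 50.3), and the adjusted p was 0.0131 by edgeR. DESeq2 called 3 of the 20 higher and limma-voom 2, *MLST8* among them in both, against 1019 and 510 of all 14391 tested genes. Of 23 tested TOP mRNAs other than those of ribosomal proteins, 0 were called by edgeR. An unadjusted p under 0.05 was found for 8 of them, against 3359 of all 14391 tested genes. The smallest p-values belonged to *EEF1A1*, the elongation factor that delivers aminoacyl-tRNA, with a log2-fold change of -1.43 ± 0.39 (SE), and to *SLC25A5*, a mitochondrial ADP/ATP carrier, with 2.64 ± 0.72 (SE). Their adjusted p-values were 0.0632 and 0.0653, and their signs were opposite. DESeq2 called 2 of the 23 higher and 2 lower, both of these genes included, against 1019 and 338 of all tested genes. With limma-voom *SLC25A5* alone was called, against 510 higher and 124 lower of all tested genes.

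**Figure D5:**
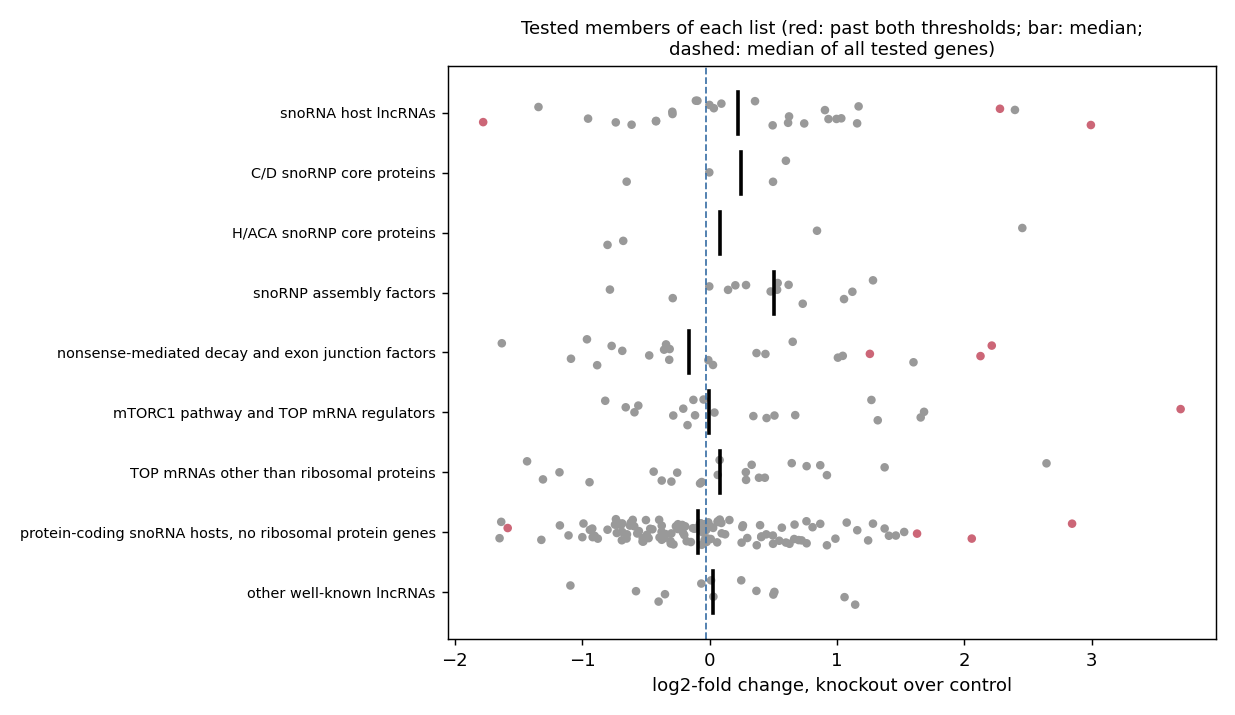
Log2-fold changes of the tested members of each list, with red points past both thresholds, a black bar at the list's median, and a dashed line at the median of all tested genes (-0.03). Points of the host lncRNAs spread from -1.78 to 2.99 around a median of 0.22, and the medians of the other 8 lists drawn lie between -0.16 and 0.50.

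Protein-coding genes also host snoRNAs, and 164 such genes were in the table. Of the 152 tested, 7 were called higher and 1 lower (4.61 and 0.658%, near the 4.17 and 1.01% of all tested genes), and the median log2-fold change was -0.04. DESeq2 called 20 higher and 3 lower, against 1019 and 338 of all 14391 tested genes. The counts by limma-voom were 11 and 1, against 510 and 124. The host lncRNAs, with 2 called higher and 1 lower of 28 and a median of 0.22, were not tested against the protein-coding hosts. Of the 7, *RPL7A* (log2-fold change 2.91), *RPL3* (2.24), *RPSA* (2.09), and *RPL13A* (1.62) encode ribosomal proteins. The others were *PHB2*, a mitochondrial inner membrane prohibitin (2.84), *KIF9*, a kinesin (2.06), and *ANKRD27*, an endosomal trafficking protein (1.63), and the gene called lower was *CSKMT*, a citrate synthase methyltransferase (-1.58). Without ribosomal protein genes, 3 of 124 were called higher and 1 lower (2.42 and 0.806%), with a median of -0.09. Among the 1452 tested lncRNA genes outside the set, 28 were called higher and 13 lower (1.93 and 0.895%). Both pairs of shares stand against 4.17 and 1.01% of all tested genes. These lncRNA genes had a median log2-fold change of -0.19 at a median level of 3.68 CPM, against 86.5 CPM for the tested hosts.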

How the data were processed

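RNA was measured in 5 pools of TF-1 clones (2 control and 3 *MTSS1* knockout). The authors made QuantSeq 3′ FWD libraries, aligned reads to GRCh38, removed those not mapped uniquely, left out pools by an outlier test, and deposited a table of unnormalized counts, as whole numbers for each Ensembl gene; the submitters' processing notes name HISAT2 2.1.0, SAMtools 1.10, FastQC 0.11.9, and DESeq2. The counting program, annotation, and use of strand are not given in the sources used here. Total counts per library ranged from 2849979 to 8854899.

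Groups were taken from the sample labels. With edgeR 4.0.16 (R 4.3.3), the table was filtered with filterByExpr (minimum count 10), scaled by TMM, and the genes tested with glmQLFit and glmQLFTest on condition alone over all genes, with Benjamini-Hochberg adjustment. Standard errors were derived from the fold change and F statistic. CPM used TMM-scaled library sizes. The scripts were tested on simulated counts of 14391 genes, 200 of them changed 4-fold. The edgeR test called 60.5% of the changed genes and 12 unchanged ones, so a missing call does not show that a gene was unchanged. Alternatives were DESeq2 1.42.0, limma-voom (limma 3.58.1), other scalings and filters, robust estimation, thinning, a replicate block, and leaving out each pool. Gene types, spans, and overlaps came from GENCODE release 44, in which 27211 table genes have an entry. Of 34 members named by the rule, *SNHG18* and *SNHG28* were not analysed here. snoRNA positions and starts came from RefSeq on GRCh38, and where no strand was annotated, the host's was used. Starts were matched by symbol for 27 members.

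Named genes are all members, the called genes of each list, or else the 2 with the smallest p, and genes overlapping called members. *TRNAU1AP*, ENSG00000286161, *SNRPN*, *UBE3A*, and *MKRN3* fall outside this rule and were chosen after their values were seen. The members and lists were chosen with earlier results of these data known. The level of 1 marker gene of another cell type is not reported here.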

Additional observations from a re-analysis of the deposited data

How the results depend on the processing

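The calls of *SNHG8* (higher), *SNHG6* (higher), and *SNHG25* (lower) were the same with limma-voom, median-of-ratios factors, TMM without ribosomal protein and mitochondrially encoded genes, a minimum of 10 counts in every library, robust estimation, thinning, and no fold threshold. DESeq2 called 4 members higher (adding *SNHG12* and *SNHG26*) and 2 lower (adding *SNHG5*). Library size alone gave 2 lower (adding *SNHG5*) and moved the median of the members to 0.07 and that of all genes to -0.17. Without a filter on low counts the median log2-fold change of the members was 0.54, over 32 members. Leaving out 1 pool at a time gave 1 to 2 members called higher, 0 to 2 called lower, and medians from 0.17 to 0.46, and where 1 control pool was left, it was assumed to vary like the knockout pools. Pool numbers 1 and 2 occur in both groups without a stated link, and the differences between pools 1 and 2 correlated across genes with r = 0.17 between groups. With the pool number as a block, 2 and 1 members were called, the median was 0.44, and 894 genes were called higher and 200 lower over all genes, against 600 and 145. Over all genes DESeq2 called 1019 and 338, limma-voom called 510 and 124, and leaving out knockout pool 1 left 107 and 4. The cause of these differences was not tested. Of 418 values for single members under alternatives, 404 kept their side of the threshold, 8 gained and 6 lost a call, and none of the called values reversed. At 0.389 to 0.938 CPM for 3 counts, the 4 untested members cannot be compared.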

Other observations

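Of 8 other lncRNA genes that hold an annotated snoRNA, 4 were tested and 0 were called by edgeR. An unadjusted p under 0.05 was found for 2 of them, against 3359 of all 14391 tested genes. DESeq2 called 1 (*LINC01618*), against 1019 higher and 338 lower of all tested genes, and limma-voom 0, against 510 and 124. *LINC01618*, which overlaps *DANCR* on the same strand, had 0 and 2.09 CPM in the control pools and 11.9, 5.05, and 7.83 CPM in the knockout pools, and its log2-fold change of 2.94 ± 0.86 (SE) had an adjusted p of 0.0800. *TMEM161B-DT* had 130 and 174 CPM in the control pools and 88.3, 99.8, and 80.7 CPM in the knockout pools, with a log2-fold change of -0.76 ± 0.29 (SE, adjusted p = 0.15). Both had no overlap between the groups, in opposite directions.

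Of 13 other well-known lncRNAs, 0 were called by edgeR and 3 had an unadjusted p under 0.05, against 3359 of all 14391 tested genes. DESeq2 called 1 (*PVT1*, lower), against 338 called lower of all tested genes, and limma-voom 0. Their median log2-fold change was 0.03. *PVT1* had 149 and 93.6 CPM in the control pools and 43.2, 65.4, and 62.3 CPM in the knockout pools (log2-fold change -1.09 ± 0.33 SE, adjusted p = 0.0846). *NORAD*, which binds Pumilio proteins, had 43.1 and 23.8 CPM in the control pools and 60.8, 71.3, and 77.3 CPM in the knockout pools (1.06 ± 0.35 SE, adjusted p = 0.105).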
